A study of Gossypium hirsutum with 4 samples.

Results

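Upland cotton, Gossypium hirsutum, is an allotetraploid, and its published assemblies hold chromosomes of an A and a D subgenome together with scaffolds that were never assigned to a chromosome. The regions described here are the peaks on those unplaced scaffolds, in a study of chromatin bound by a FLAG antibody in leaves. A peak was taken as a member when its sequence name was the word scaffold followed by a number alone, with no chromosome after it. This gave 5280 of the 18015 peaks in the list labelled D53, or 29.3% (95% Wilson interval 28.6 to 30.0), and 6281 of the 19400 peaks in the list labelled B, or 32.4% (31.7 to 33.0). Together they made up 11561 of 37415 peaks. They lay on 6683 scaffolds, numbered from 4717 to 271301.

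The study used chromatin immunoprecipitation followed by sequencing, in which DNA cross-linked to a protein is recovered with an antibody and read. There were 4 samples, all from leaves: the D53 immunoprecipitate, the D53 input, the B immunoprecipitate and the B input, with 1 library each. The labels give FLAG as the antibody and name no age, genotype, number of plants, promoter or tagged construct, and they do not say what B is. No immunoprecipitate from leaves without a tagged protein is named. The authors deposited 1 peak list for each immunoprecipitate, called against its own input.

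D53 is known, first from rice, as a repressor that holds back the response to strigolactone hormones and is degraded once the hormone is perceived. FLAG is a short tag fused to a protein so that 1 antibody can recover it. Sequences that stay unplaced in plant assemblies are often repeats that resemble one another too closely to be ordered. What the scaffolds of this study hold was not analysed here, since no genome of the lists' coordinates was at hand, and no peak was assigned to a gene or given a base sequence.

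The value that the authors gave each peak is called the score. It was a whole number, and the sources used here define neither it nor its scaling. How deeply the 4 samples were sequenced is unknown, so a score of one list is no level against the other list. Scores of both lists set side by side are raw values. The intervals hold only the error of counting peaks, and peaks of 1 scaffold are not independent. With 1 library per immunoprecipitate there was no replicate check of any difference, and no test between conditions or between kinds of sequence was run.

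Most unplaced scaffolds with a peak carried a single one. In the D53 list 3720 of 4265 scaffolds had 1 peak and 545 had several, meaning at least 2, a share of 12.8% (Wilson interval 11.8 to 13.8). In the B list 4408 of 5066 had 1 peak and 658 had several, or 13.0% (12.1 to 13.9). Scaffolds named after a chromosome carried several peaks more often, in 43.6% of 1494 scaffolds in the D53 list and 42.6% of 1492 in the B list. The fullest unplaced scaffold held 44 D53 and 46 B peaks. Scaffolds with 10 or more peaks were rare, numbering 8 in the D53 list and 10 in the B list.

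**Figure D1:**
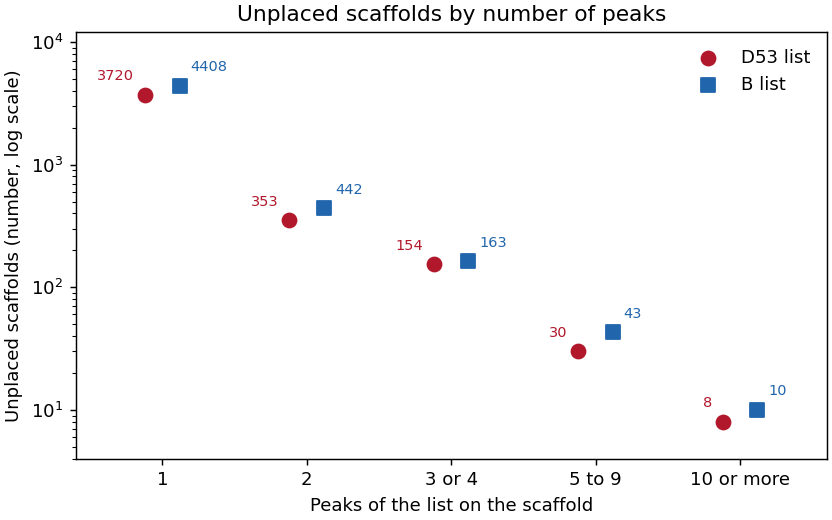
Number of unplaced scaffolds (vertical axis, log scale) by how many peaks of a list they carry (horizontal axis), with circles for the D53 list and squares for the B list. Both lists fall off alike, from 3720 D53 and 4408 B scaffolds with 1 peak to 8 and 10 scaffolds with 10 or more.

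The scaffolds were short as far as the peaks show. Scaffold lengths were not used here, so each scaffold was given a span that reaches to its last peak end over both lists. The true length is at least this long. The median span was 711 bp (quartiles 436 and 1692, highest 418471 on scaffold4718). Spans of at most 500 bp made up 2191 of the 6683 scaffolds, and none of these carried several peaks of either list. That absence was fixed by construction, since several peaks with their gap cannot lie within 500 bp. In the D53 list no peak was narrower than 199 bp and no gap between neighbouring peaks shorter than 200 bp. In the B list these minima were 186 and 187 bp. Among spans above 20000 bp, 52.9% of 102 scaffolds in the D53 list and 54.0% of 100 in the B list carried several. A longer scaffold has more room for peaks, and several peaks lengthen the span by construction.

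Peaks covered a small part of the summed span but a large part of the span of the typical scaffold. Since the true length may be longer than the span, covered shares are upper bounds for the scaffold itself. D53 peaks covered 1866 of 16902 kb of span, or 11.0%, and B peaks 2045 of 16984 kb, or 12.0%. Taken scaffold by scaffold the median covered share was 42.1% in the D53 list and 43.8% in the B list. Scaffolds with 1 peak had a median of 46.7% in the D53 list and 48.0% in the B list, against 16.8% and 17.0% on those with several. The first values are high partly by construction, since on many of these scaffolds the span ends with the peak itself. With spans of at most 500 bp 63.7% was covered in the D53 list and 62.1% in the B list. Above 20000 bp these shares were 2.22% and 2.47%.

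Near-complete coverage was uncommon. More than 90% of the span was covered on 27 scaffolds in the D53 list and on 27 in the B list. On scaffold17286 a single peak ran from 1 to 1976 in both lists, with a score of 175 in D53 and 97 in B. It was the only 1 of 2957 overlapping pairs on unplaced scaffolds whose start and end were the same in both lists. Among scaffolds with several peaks the largest covered share was 88.7% in the D53 list, on scaffold10319, and 91.4% in the B list, on scaffold10574. Scaffold7624 came 4th in both of these orders, at 81.0% in D53 and 80.6% in B.

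Peaks on unplaced scaffolds were narrow. The median width was 277 bp in the D53 list (quartiles 231 and 377) and 253 bp in the B list (213 and 344), close to the 267 and 251 bp on chromosomes. On scaffolds with 1 peak the medians were 266 bp for D53 and 245 bp for B, and on scaffolds with several they were 315 and 281 bp. The widest peak of each list was on scaffold5094. It measured 9169 bp in both, from 12512 to 21680 in D53 and from 12516 to 21684 in B. The narrowest D53 peak was 199 bp and the smallest gap between neighbouring D53 peaks 200 bp. The B values were 186 and 187 bp, so in each list the smallest gap was 1 bp above the narrowest width.

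Scores were higher on unplaced scaffolds than on chromosomes within each list. For D53 the median score was 10 on unplaced scaffolds (quartiles 6 and 22.3) and 6 on chromosomes (4 and 12). For B it was 15 (9 and 36) and 10 (7 and 20). Scores of 50 or more were held by 10.2% of D53 peaks on unplaced scaffolds and by 4.37% on chromosomes. The B shares were 18.7% and 9.59%. Scaffolds named after a chromosome lay between, so higher scores than on chromosomes were not particular to the unplaced ones. Their median score was 8 in D53 and 13 in B, and 6.30% and 14.6% of their peaks scored 50 or more.

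Within the unplaced scaffolds the highest typical scores lay on the few scaffolds with many peaks. In the D53 list the median score was 10 with 1 peak on the scaffold, 9 with 2 to 4, 37 with 5 to 9 and 47 with 10 or more. The B medians for the same classes were 15, 13, 50.5 and 159. The scaffolds with 10 or more peaks held 174 D53 peaks, 46.0% of them with a score of at least 50, and 214 B peaks, 89.7% of them with such a score. Pooled over all scaffolds with several peaks, the medians lay close to those with 1 peak, at 10 with 1 peak and 12 with several in the D53 list, and at 15 and 17 in the B list. The upper parts lay further apart. Scores of at least 50 made up 6.56% of D53 peaks with 1 peak on the scaffold and 18.8% with several, and 14.5% and 28.4% of B peaks. Leaving out the 10 scaffolds with the most peaks, a choice made after seeing the data, gave a median of 10 in the D53 list and 14 in the B list for scaffolds with several.

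**Figure D2:**
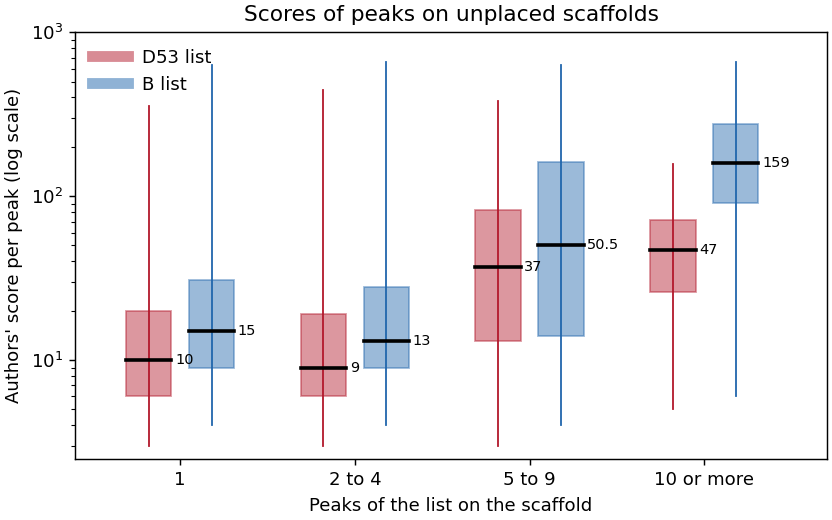
Authors' score per peak (vertical axis, log scale) by the number of peaks of the same list on the scaffold (horizontal axis), D53 in red on the left and B in blue on the right. Boxes span the quartiles, black bars with numbers are medians and lines reach from the lowest to the highest score, and the medians stay near 10 for D53 and 15 for B until 5 or more peaks share a scaffold.

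The 10 scaffolds with the most peaks of both lists together were scaffold4807, scaffold4830, scaffold4811, scaffold4839, scaffold4992, scaffold4815, scaffold5148, scaffold4940, scaffold5332 and scaffold5000. On them lay 190 D53 peaks, which is 3.60% of the D53 peaks on unplaced scaffolds, and 214 B peaks, which is 3.41%, within 465 kb of span. Of these peaks 187 D53 and 184 B peaks had at least 1 bp in common with a peak of the other list. Over all sequences 44.0% of D53 and 41.3% of B peaks did so. Median scores on these 10 scaffolds were high, at 35 to 62 in D53 and 117 to 204 in B. On chromosomes a partner was found for 92.4% of D53 and 70.4% of B peaks with scores of at least 20 and below 50. With scores of at least 50 these shares were 95.6% and 87.4%. Whether overlap here exceeds that of peaks with like scores was not tested. The share varied among the 10 scaffolds. A partner was found for 18 of 20 D53 and 17 of 25 B peaks on scaffold4839, and for 7 of 7 D53 and 7 of 11 B peaks on scaffold5000.

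Scaffold4807 was the fullest, with 44 D53 and 46 B peaks between 1092 and 77586. The D53 peaks covered 29.6% of its span and the B peaks 32.5%. Their scores ran from 13 to 135 in D53 (median 48.5) and from 47 to 534 in B (median 189.5). A partner in the other list was found for all 44 D53 peaks and for 43 of the 46 B peaks. The pair with the highest geometric mean score lay at 41023 to 41767 in D53, with a score of 125, and at 41050 to 41783 in B, with a score of 510. On scaffold4830 27 D53 peaks had a median score of 55 and 29 B peaks one of 204. Scaffold4992 paired a D53 peak from 25381 to 28735 with a score of 158 with a B peak from 25388 to 28764 with a score of 660. The smallest covered shares of the 10 were on scaffold4815, at 12.8% in D53 and 16.5% in B.

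Scaffold7624, only 7725 bp in span, looked different. It held 5 peaks in each list, nearly back to back. The D53 peaks scored 380, 355, 334, 357 and 173 along the scaffold. The B peaks scored 376, 362, 308, 382 and 173. The log2 of the D53 over the B score ran from -0.10 to 0.12 over these pairs. Its median over all overlapping pairs on unplaced scaffolds was -0.74. Successive D53 peaks began 1773, 1885, 1817 and 1825 bp apart, and successive B peaks 1711, 1889, 1842 and 1854 bp apart, a near-regular step.

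**Figure D3:**
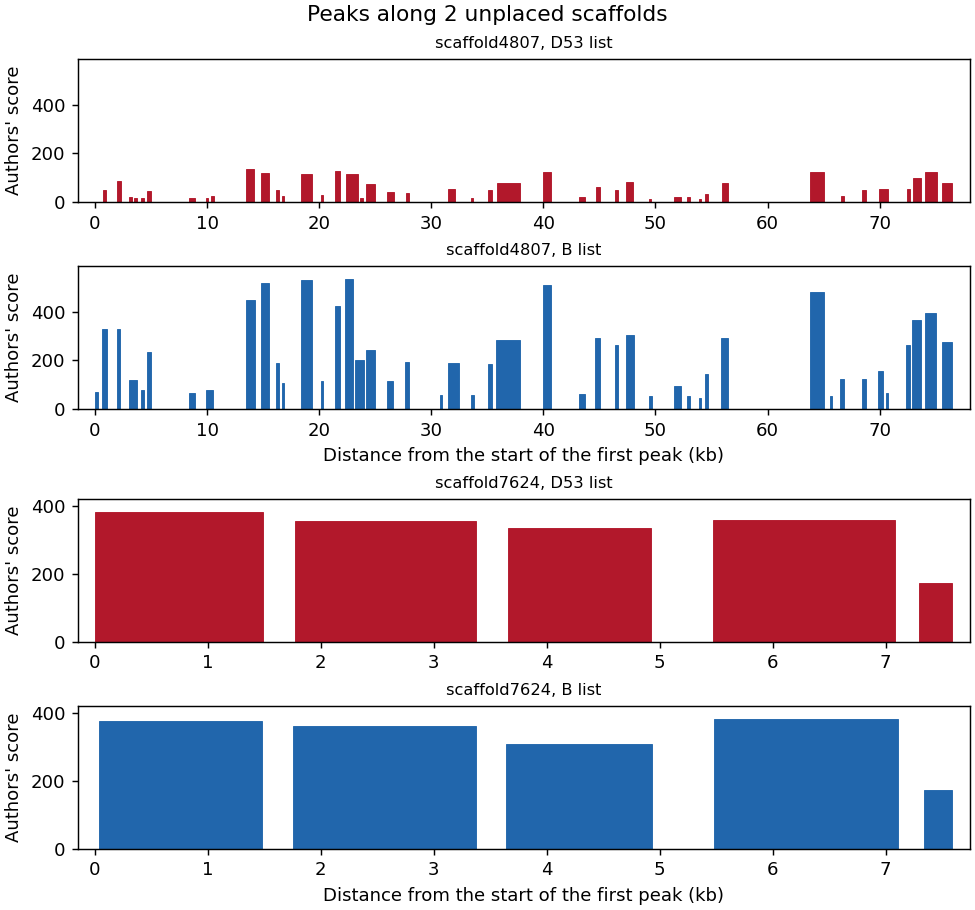
Peaks along scaffold4807 (upper pair of panels) and scaffold7624 (lower pair), with the D53 list above the B list in each pair. The horizontal axis is the distance from the start of the first peak in kb, each bar spans 1 peak and its height is the authors' score. Scaffold4807 shows mostly overlapping peaks with D53 scores up to 135 and B scores up to 534. Scaffold7624 shows 5 peaks in each list, with raw scores of 173 to 380 in D53 and 173 to 382 in B.

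Peaks on unplaced scaffolds overlapped a peak of the other list in 2911 of 5280 cases for D53, or 55.1% (Wilson interval 53.8 to 56.5), where 44.0% of all D53 peaks did so. For B it was 2926 of 6281, or 46.6% (45.4 to 47.8), where the figure over all B peaks was 41.3%. On chromosomes the shares were 37.2% for D53 and 36.7% for B, and on scaffolds named after a chromosome 45.3% and 44.7%. Within bands of score the kinds of sequence lay closer together. With scores of at least 50, 95.2% of D53 peaks on unplaced scaffolds (93.0 to 96.7) and 95.6% on chromosomes (93.2 to 97.2) had a partner. From 20 to 49 these shares were 92.5% and 92.4%. Below 5 they were 11.7% (9.28 to 14.7) and 6.00% (5.17 to 6.96). In the B list 63.1% of peaks with a score of 20 to 49 had a partner on unplaced scaffolds (60.6 to 65.6), below the 70.4% on chromosomes (68.1 to 72.6).

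Scaffolds with 1 peak in each list numbered 1951. The 2 peaks overlapped on 1791 of them, or 91.8% (Wilson interval 90.5 to 92.9). On a short scaffold 2 peaks have little room to lie apart, and how many would meet by position alone was not computed. The median score of these overlapping peaks was 18 in D53 and 29 in B.

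Many scaffolds appeared in 1 list only. A D53 peak without any B peak was found on 1617 of 4265 scaffolds, or 37.9% (Wilson interval 36.5 to 39.4), where 35.4% of all scaffolds with a D53 peak, placed or not, lacked B peaks. A B peak without any D53 peak was found on 2418 of 5066, or 47.7% (46.4 to 49.1), against 43.3% of all scaffolds with a B peak. Scaffolds named after a chromosome lay in 1 list only in 28.2% of cases for each list. These more often carried several peaks, in 43.6% of cases for D53 and 42.6% for B, so the kinds are not matched in number of peaks. Unplaced scaffolds with several peaks of a list lay in that list only in 12.8% of cases for D53 and 16.7% for B. Of the unplaced scaffolds in 1 list only, 1547 D53 and 2308 B scaffolds carried a single peak.

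The peaks on these scaffolds were weak and narrow. D53 peaks had a median score of 7 on scaffolds without a B peak and of 15 on scaffolds with peaks of both lists, with median widths of 247 and 295 bp. For B the median scores were 11 and 24 and the widths 225 and 280 bp. Peaks without an overlapping partner on scaffolds of both lists scored as low, with medians of 7 in D53 and 10 in B. The share of scaffolds in 1 list only fell with the highest score on the scaffold. In the D53 list it was 78.3% below a score of 5, 56.3% from 5 to 9, 30.3% from 10 to 19, 7.16% from 20 to 49 and 3.13% from 50 upwards. The B shares in the same bands were 82.6%, 75.8%, 54.6%, 33.4% and 9.63%. Since a score may mean different levels in the 2 lists, the bands cannot be matched between them.

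**Figure D4:**
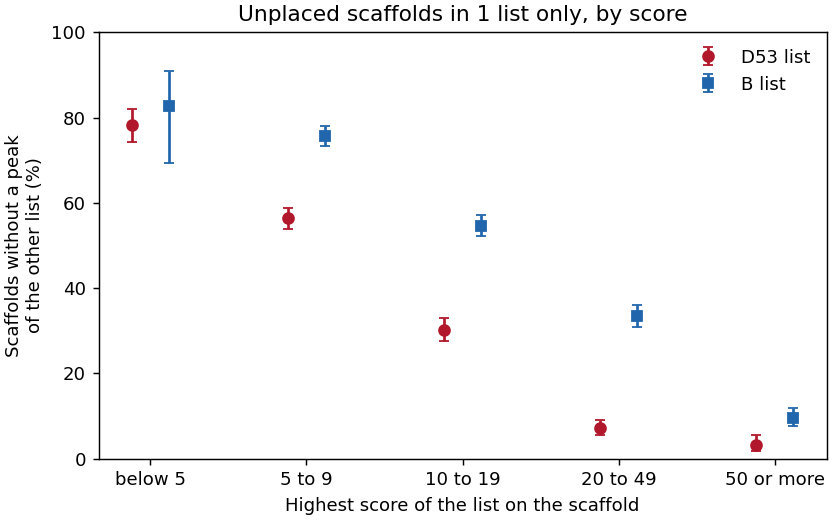
Share of unplaced scaffolds with a peak of one list and none of the other (vertical axis, %) by the highest score on the scaffold (horizontal axis), with circles for the D53 list, squares for the B list and bars for 95% Wilson intervals. The share falls in every step, to 3.13% in the D53 list and 9.63% in the B list from a score of 50 upwards.

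A few scaffolds in 1 list only carried strong peaks. In the D53 list 14 of 1697 such peaks had a score of at least 50, or 0.825%, and in the B list 77 of 2555, or 3.01%. Scaffold12054 held the strongest of the D53 peaks, at 22 to 302 with a score of 248. Scaffold11394 carried 3 D53 peaks with scores of 137, 136 and 95, at 725 to 1059, 2512 to 2896 and 3270 to 3516. The next D53 scaffolds were scaffold9318, with a score of 100, scaffold17774, with 93, and scaffold16160, with 64 and 68. In the B list the highest was a peak at 55 to 268 on scaffold137243, with a score of 382. It was followed by scaffold54043 with 194, scaffold55301 with 155, scaffold33008 with 154 and scaffold14992 with 147. These scaffolds show only that no peak was called on them in the other list. The 1-list scaffolds with the most peaks were mostly weak apart from scaffold11394. Scaffold5087 had 4 B peaks with scores of 26, 12, 12 and 7. Scaffold6063 and scaffold9524 had 4 D53 peaks each, with scores of 3 to 6, and scaffold7792 and scaffold7521 had 5 B peaks each, with scores of 6 to 15.

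Scores of overlapping peaks were compared as the log2 ratio of the D53 to the B score, and read only against the same ratio elsewhere in the same lists. Over 2957 pairs on unplaced scaffolds the median was -0.74 (SD 0.70), and over 3633 pairs on chromosomes it was -0.62 (SD 0.64). A ratio below -1.5 was found in 485 pairs on unplaced scaffolds, or 16.4%, where 13.5% of all pairs had one. A ratio above -0.5 was found in 995, or 33.6%, where the figure over all pairs was 36.1%. Pairs on scaffolds named after a chromosome came close to these values, with a median of -0.70, 15.0% below -1.5 and 33.2% above -0.5. These bounds were set with the data in view.

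The low ratios were concentrated among strong pairs. With a geometric mean score of at least 100, 231 of 370 pairs on unplaced scaffolds lay below -1.5, or 62.4%, with only 28 between -1.5 and -0.5 and 111 above -0.5. On chromosomes 131 of 273 such pairs lay below -1.5, or 48.0%. With a mean score of 10 to 19 the share was 3.13% on unplaced scaffolds and 4.47% on chromosomes. No scaffold held peaks of both the 10 highest in D53 and the 10 highest in B, though some held more than 1 of the same list. The 10 highest D53 peaks on unplaced scaffolds scored 335 to 442, and the strongest B peak overlapping each 312 to 439, with log2 ratios from -0.22 to 0.13. For the 10 highest B peaks the strongest D53 peak overlapping each scored 118 to 171, and the B peaks 557 to 663, with ratios from -2.27 to -1.87. Picking by the D53 score favours high ratios and picking by the B score low ones, so these ranges differ partly by construction.

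Pairs on the same scaffold had similar ratios. A peak with several partners entered several pairs, so 5 pairs can hold fewer than 5 peaks of a list. Scaffold8169, for instance, had 5 pairs from 3 D53 and 5 B peaks. Of the 32 unplaced scaffolds with at least 5 overlapping pairs, 20 had a median log2 ratio below -1.5, between -2.22 and -1.84. Another 8 had a median above -0.5, between -0.32 and 0.07. The other 4 lay between -0.77 and -0.57, so that no unplaced scaffold among the 32 had a median between -1.84 and -0.77. Scaffolds named after a chromosome split otherwise. With at least 5 pairs, 7 of 39 had a median below -1.5, 12 above -0.5 and 20 between. On the 20 low unplaced scaffolds 235 of 255 pairs lay below -1.5 and 1 above -0.5. On the 8 high unplaced scaffolds 40 of 43 pairs lay above -0.5 and 0 below -1.5. The low and high groups were set by the medians of these same pairs, so both counts are partly fixed by construction. All 10 scaffolds with the most peaks belonged to the low ones, with medians of -2.10 to -1.94.

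The low and the high unplaced scaffolds overlapped in their scores, covered shares and spans. Median D53 scores per scaffold were 35 to 109 on the 20 low scaffolds and 12 to 355 on the 8 high ones, and median B scores were 117 to 389 and 15 to 362. The D53 peaks covered 12.8% to 64.9% of the span of the low scaffolds and 12.3% to 81.0% of the high ones. The spans ran from 4181 to 77586 bp on the low and from 6018 to 18472 bp on the high scaffolds. Some low and high scaffolds had like median B scores. Their D53 scores then differ by construction, since the groups were set by the ratio. On scaffold8121 the median score was 109 in D53 and 389 in B, while scaffold7624 had 355 in D53 and 362 in B. On scaffold4839 it was 38 in D53 and 117 in B, while scaffold5362 had 123.5 in D53 and 127 in B. Scaffold5537 had 132 and 131.5, and scaffold5820 268 and 259. Other high scaffolds had no such counterpart. Median B scores were 15 on scaffold8169, 19 on scaffold6355, 18 on scaffold6127 and 16 on scaffold5605, below the 117 lowest among the low scaffolds.

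**Figure D5:**
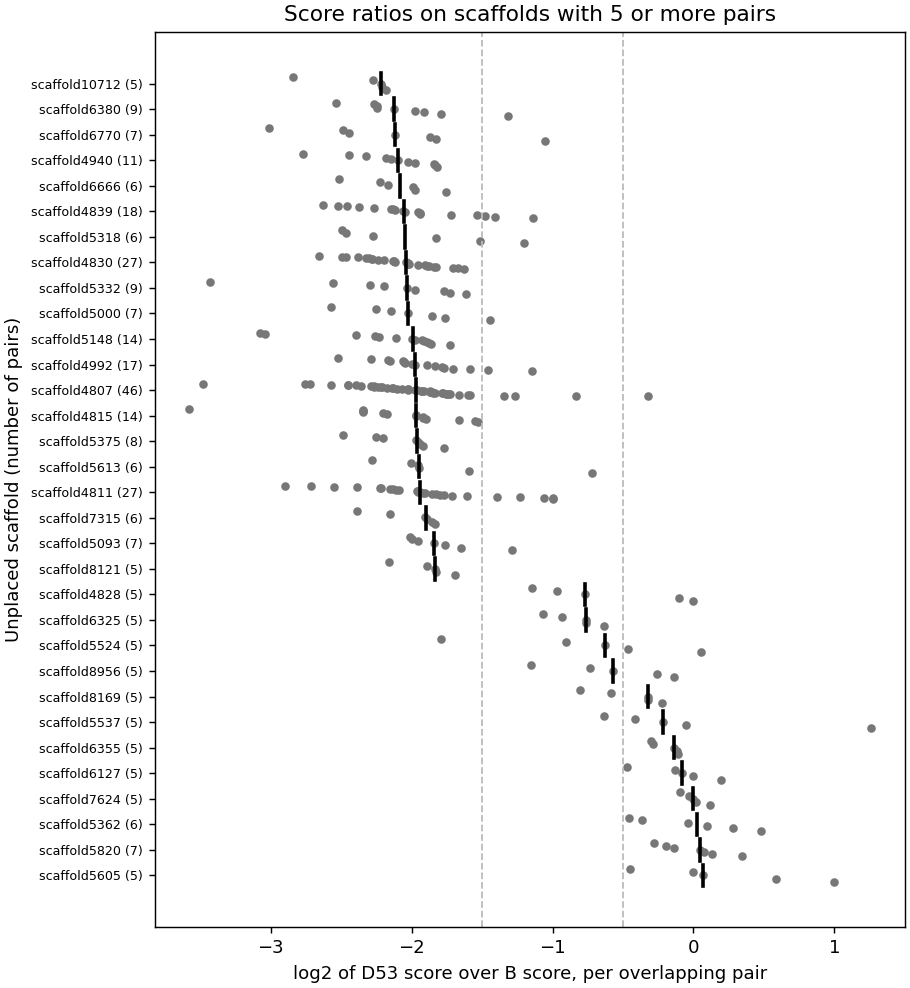
Log2 of the D53 over the B score (horizontal axis) for each overlapping pair on the 32 unplaced scaffolds with at least 5 pairs, 1 scaffold per row with its number of pairs in brackets. Grey points are pairs, black bars are medians and dashed lines mark -1.5 and -0.5, and 20 medians lie near -2, with none between -1.84 and -0.77.

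With fewer pairs asked of a scaffold, more scaffolds had intermediate values. Of 88 unplaced scaffolds with at least 3 pairs, 35 had a median below -1.5, 34 above -0.5 and 19 between. Of 262 with at least 2 pairs, these numbers were 52, 108 and 102. For scaffolds named after a chromosome they were 8, 40 and 83 of 131 with at least 3 pairs. With at least 2 pairs they were 9, 83 and 180 of 272. Across the 262 unplaced scaffolds and their 847 pairs the SD of the log2 ratio was 0.82 between and 0.42 within scaffolds, as estimated in a one-way random-effects model. Differences between scaffolds thus made up 79.4% of the variance. The same share was 65.1% over 272 scaffolds named after a chromosome. With at least 5 pairs per scaffold the shares lay close together, at 75.6% on unplaced scaffolds and 74.4% on those named after a chromosome. Pairs of 1 scaffold are neighbours and share both libraries, and stronger pairs tended to lower ratios, so these shares are given as a description.

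The most extreme ratios were taken from 1619 pairs without a second partner on either side whose geometric mean score was at least 20. Among them the 10 lowest ran from -3.43 to -2.86. The lowest was on scaffold5332, with a score of 14 in D53 at 5514 to 5729 and of 151 in B at 5485 to 5742. Scaffold5148 gave the next 2, with D53 scores of 18 and 13 against B scores of 152 and 107. On scaffold56179, which carried 1 peak in each list, D53 scored 37 and B 304. The 10 highest ratios ran from 0.67 to 2.01. The highest was on scaffold6110, with a score of 101 in D53 at 5398 to 5731 and of 25 in B at 5466 to 5740. Scaffold17094 followed, with 41 in D53 and 11 in B, and scaffold5956, with 68 in D53 and 19 in B.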

How the data were processed

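Leaf chromatin was profiled in 4 samples. Per the labels' protocols it was cross-linked with formaldehyde, sonicated and sequenced on Illumina machines from both fragment ends. Per the peak names in the files, the authors called each immunoprecipitate against its own input, without pooling. The deposited lists give a sequence, start, end, name and 1 score per peak. The aligner, peak caller, threshold, build and read depth are not given in the sources used here. These settings would shift scores, peak numbers and overlap, and the handling of reads with several matches would bear on repeated sequence.

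Starts were converted to count from 1. Peaks with at least 1 bp in common were paired. Scores were not rescaled. Shares carry 95% Wilson intervals, and medians were compared with binomial rank intervals. Overlap and variance share were checked on simulated data. The tools were pandas 2.3.3 and NumPy 2.4.6 under Python 3.11.15, with matplotlib 3.10.9 for figures and SciPy 1.17.1 for intervals. Regions were named by rule: most peaks of both lists (10), highest score per list (10), highest and lowest ratio (10 each), most peaks or highest score in 1 list only (5 each), and largest covered share (5 per list). Members, bounds and rules were chosen with earlier results of these data known. Alternatives covered score minimums, joined peaks, overlap rules and the span.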

Additional observations from a re-analysis of the deposited data

How the results depend on the processing

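Of 79 alternatives over 20 values, 8 stayed within the interval of the value as reported. The other 71 moved beyond it or, for covered and variance shares, changed at all. Among the 8 were the median scores of scaffolds with 1 peak, taken by each scaffold's highest or median score. These stayed at 10 in D53 and 15 in B by construction, since both equal the score of the only peak. Only the median log2 ratio was checked for a change of sign, and 0 of its alternatives reversed it. The other values cannot be negative. Alternatives that leave out peaks or scaffolds change the set by construction. For the others the cause was not tested. Of D53 peaks the share on unplaced scaffolds was 39.0% with scores of at least 10, 42.1% with at least 20, 38.5% above the list's median score and 19.9% counting only scaffolds with peaks of both lists. For B these values were 38.1%, 41.3%, 39.6% and 19.2%. The share of scaffolds with several D53 peaks was 10.6% with peaks at most 500 bp apart joined, 10.4% with scores of at least 10, 10.7% with at least 20 and 10.6% above the median. The B values were 10.2%, 11.0%, 9.30% and 9.81%. The share of scaffolds in 1 list only was 18.2% for D53 where the highest score was at least 10, 5.92% where it was at least 20 and 12.8% with several peaks. For B it was 37.7%, 24.3% and 16.7%. Median D53 widths were 288 bp (1 peak) and 366 bp (several) with scores of at least 10, and 382 bp with 5 or more peaks. B widths were 249 and 293 bp after joining, 256.5 and 316.5 bp with scores of at least 10, 353 bp with 5 or more peaks and 269 bp without the 10 scaffolds with the most peaks, a setting added after seeing the data. The median score on scaffolds with several D53 peaks was 14 by each scaffold's highest score, 10.5 by its median, 43 with 5 or more peaks and 10 without those 10 scaffolds. The B scores were 20, 14.5, 119.5 and 14. Of these, 14.5 and 14 lay below the 15 of B scaffolds with 1 peak, so the order of 1 and several turned round there. The D53 value of 10 equalled that with 1 peak. The covered share for D53 was 22.3% with spans from first start to last end, 42.1% as a median over scaffolds, 8.87% with several peaks, 17.7% with scores of at least 20 and 10.7% without the 10 scaffolds. For B it was 24.0%, 43.8%, 9.70%, 14.9% and 11.7%. The overlapping share of D53 peaks was 53.5% with at least 50% of the shorter peak covered, 47.2% with 50% of both, 51.1% with midpoints at most 200 bp apart, 93.0% with scores of at least 20 in both lists, 72.2% above the medians, 60.6% with several peaks and 53.5% without the 10 scaffolds. For B it was 45.2%, 39.6%, 43.0%, 54.5%, 61.2%, 55.0% and 45.2%. The median log2 ratio was -0.75 with 50% of both peaks covered, -0.69 by scaffold, -0.82 with scores of at least 20 and -0.69 without the 10 scaffolds. The share of its variance between scaffolds was 83.7% without second partners, 75.6% with at least 5 pairs, 83.5% with scores of at least 20 and 74.6% without the 10 scaffolds.

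Each group has 1 library, so no replicate was left out. No paired analysis was possible because each immunoprecipitate is a single library and the labels number D53 as 1 and B as 2. Depth is unknown, so a missing peak means only that none was called.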

Other observations

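Some peaks stood at the very start of their scaffold. Of the peaks on unplaced scaffolds 348 D53 peaks, or 6.59%, and 527 B peaks, or 8.39%, began within the first 100 bp, and 5 D53 and 4 B peaks began at position 1. Neighbouring peaks on the same unplaced scaffold were a median of 1053 bp apart in the D53 list (1015 gaps) and 899 bp apart in the B list (1215 gaps). Of these gaps 25.9% in D53 and 30.6% in B were at most 500 bp long. Widths went with scores in both lists. The median width was 250 bp for D53 peaks with a score below 10 and 448 bp for those of 100 or more, and 226 and 380 bp for B peaks in the same bands.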
